A study of Macaca mulatta with 6 samples.

Results

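miR-190a and miR-582 are microRNAs (miRNAs), RNAs that guide Argonaute proteins to messenger RNAs and repress them. The 3 mature miRNAs described here, mml-miR-190a-5p, mml-miR-190a-3p and mml-miR-582-5p (mml stands for Macaca mulatta and is left out below), are 3 of 701 rows of a table of mature miRNA counts from rhesus monkey testis. They were picked because their counts were lower in the libraries from gonadotropin-treated animals. Their values between the groups are therefore given as a description; the test across the whole table is mentioned for its calls, and no p-value is given for them.

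The study used 6 juvenile, wild-type rhesus monkeys and made a small RNA library from the whole testis of each. The vehicle group held animals 7, 9 and 11, aged 24, 14 and 15 months, infused with vehicle for 48 h. The gonadotropin group held animals 8, 10 and 12, aged 22, 14 and 15 months, infused for 48 h with pulsed gonadotropin (luteinizing hormone together with follicle-stimulating hormone). Libraries are named by group and animal, and the samples are separate animals. The right testis was divided into fragments, which hold tubules, interstitium and vessels together. In such bulk samples, fewer cells of a type and less RNA per cell cannot be told apart.

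A miRNA precursor is a hairpin that is cut into a 5p and a 3p strand, and usually one of them is loaded into Argonaute more often. miR-190a is encoded inside TLN2, the gene of talin 2, an adaptor that ties integrins to actin, and miR-582 inside PDE4D, which encodes a phosphodiesterase that breaks down cyclic AMP. Cyclic AMP is the second messenger of the receptors for follicle-stimulating hormone on Sertoli cells and for luteinizing hormone on Leydig cells. miR-190a has been reported to restrain PHLPP1, a phosphatase that switches off AKT. miR-190b, encoded elsewhere, shares the seed of miR-190a-5p.

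Both arms of miR-190a were assigned to 1 precursor on chromosome 7 (41206805 to 41206889, rheMac2), and both arms of miR-582 to 1 precursor on chromosome 6 (57373382 to 57373479, rheMac2). In the RefSeq annotation of the T2T-MMU8v2.0 assembly the whole MIR190A gene lies within the span of TLN2 and the whole MIR582 gene within that of PDE4D. MIR190B overlaps the end of TPM3, which encodes a tropomyosin. Neither TLN2 nor PDE4D holds another annotated miRNA gene.

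Total counts per library were 1100190 to 1747355 in the miRNA table. Rows with too few counts were left out, which kept 433 rows, among them all 3 members. Values below are CPM (a count relative to the library total) scaled by the trimmed mean of M-values (TMM). This scaling applies a factor to each library and assumes that most rows do not differ between libraries. Vehicle 7, from the oldest animal, stood apart from the other libraries. On the component that held 47.5% of the variance it lay at -14.77, and the others between -2.54 and 6.90. Gonadotropin 8, from the next oldest animal, lay at 6.90, the furthest from vehicle 7. Markers of germ cells and testis, 32 rows of which none was at 0 in all libraries, summed to 64200 to 77400 CPM in vehicle and 54600 to 74200 CPM in gonadotropin libraries. Abundant rows such as miR-513a (10500 to 25600 CPM) weigh most in these sums. Of the 22 tested, 9 had higher and 13 lower values with gonadotropin (median log2 fold change -0.11, beside -0.06 over all rows).

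miR-190a-5p was far higher in 1 vehicle library than in the other 5 libraries, and the remaining vehicle libraries lay on either side of the gonadotropin libraries. Vehicle 7 held 830 CPM, vehicle 9 held 94.2 CPM and vehicle 11 held 221 CPM. In the gonadotropin libraries it was 98.9 CPM in animal 8, 134 CPM in animal 10 and 116 CPM in animal 12. The groups thus overlapped, because vehicle 9 was the lowest of all 6 libraries. The vehicle libraries averaged 382 ± 394 CPM and the gonadotropin libraries 116 ± 17.6 CPM (SD, n = 3 each), so the spread in vehicle (103% of its mean) was as large as the mean itself, against 15.1% in gonadotropin. The log2 fold change was -1.71 (SE 0.67), the lowest of the 433 tested rows, whose median was -0.06. With medians in place of means the contrast was 221 against 116 CPM.

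For miR-190a-5p, counting error was small beside the distance of vehicle 7 and vehicle 11 from the other libraries. miR-190a-5p had 1042 reads in vehicle 7, with a 95% counting interval of 781 to 882 CPM, and 287 reads in vehicle 11 (196 to 248 CPM). Vehicle 9 had 125 reads (78.4 to 112 CPM). Its interval overlapped those of gonadotropin 8 (82.2 to 118 CPM) and gonadotropin 12 (99.6 to 135 CPM), so the order of these libraries lies within counting error. These intervals were computed from the counts alone and cover counting error only. No molecular identifiers are given for the reads here. Among all mature miRNAs miR-190a-5p ranked 105 by count in vehicle 7 and between 160 and 229 in the other libraries.

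**Figure D1:**
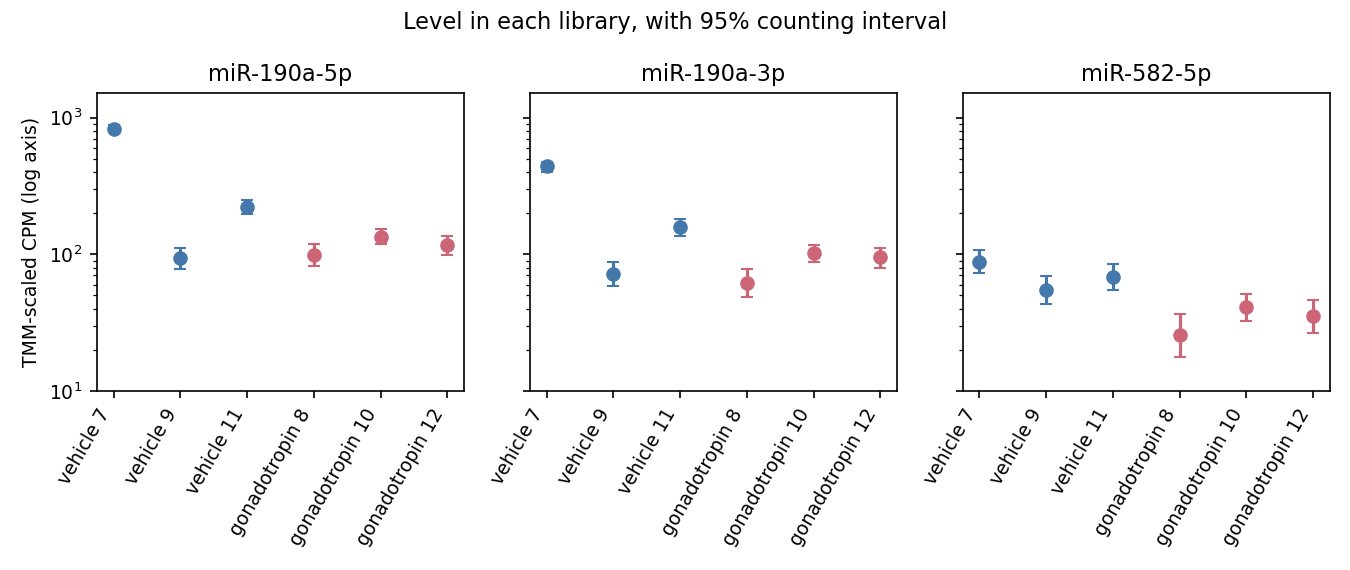
TMM-scaled CPM (log axis) of miR-190a-5p, miR-190a-3p and miR-582-5p in each of the 6 libraries, vehicle in blue and gonadotropin in red, with 95% counting intervals. Vehicle 7 stands at 830 and 439 CPM for the miR-190a arms, above every other library, whereas for miR-582-5p all 3 vehicle libraries (55.0 to 88.4 CPM) lie above all 3 gonadotropin libraries (25.7 to 41.3 CPM).

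miR-190a-3p, the other strand of the same hairpin, followed the same order of libraries at its upper end. Vehicle 7, 9 and 11 held 439, 72.3 and 157 CPM, and gonadotropin 8, 10 and 12 held 61.9, 102 and 94.9 CPM. Vehicle 9 again lay below gonadotropin 10 and gonadotropin 12, so the groups overlapped. The means were 223 ± 192 CPM in vehicle and 86.3 ± 21.4 CPM in gonadotropin (SD, n = 3 each), and the log2 fold change was -1.36 (SE 0.57), the rank 7 from the lowest. As both arms are cut from 1 precursor, they are not 2 independent measurements of the gene.

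miR-582-5p was lower in every gonadotropin library than in every vehicle library, with a smaller difference than that of miR-190a but less spread. Vehicle 7, 9 and 11 held 88.4, 55.0 and 68.4 CPM, and gonadotropin 8, 10 and 12 held 25.7, 41.3 and 35.2 CPM. The groups did not overlap. Vehicle 7 was the highest library here too, at 2.10-fold the median of the others, against 7.07-fold for miR-190a-5p. The means were 70.6 ± 16.8 CPM and 34.1 ± 7.84 CPM (SD, n = 3 each), and the log2 fold change was -1.04 (SE 0.38), the rank 14 from the lowest. Its counts were lower too, 32 to 111 reads per library. The 95% counting intervals of the nearest libraries met, at 43.1 to 69.1 CPM in vehicle 9 and 32.6 to 51.6 CPM in gonadotropin 10.

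So 1 of the 3 members, miR-582-5p, separated the groups. Over all tested rows 4.39% separated them with the gonadotropin libraries lower, and since the members were picked on this contrast nothing is read from that. The edgeR quasi-likelihood test, with Benjamini-Hochberg adjustment over all 433 rows, called 0.231% of rows in either direction and 0% as lower, so none of the members was called. Of these rows 26 had an unadjusted p under 0.05, 10 of them lower. Just below miR-190a-3p in the order of fold changes lay miR-1247-5p (-1.41, SE 0.45) and just above it miR-186-5p (-1.36, SE 0.75). Around miR-582-5p lay miR-193a-3p (-1.06, SE 0.47) and miR-3938-3p (-1.02, SE 0.53). In the authors' deposited table the log2 fold change was -1.59 for miR-190a-5p, -1.26 for miR-190a-3p and -0.97 for miR-582-5p.

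The members differed in how much of the fold change came from vehicle 7. Without that library the log2 fold change of miR-190a-5p was -0.43 (SE 0.40), that of miR-190a-3p -0.40 (SE 0.41) and that of miR-582-5p -0.84 (SE 0.37). The first ranked 43 and the second 48 from the lowest of 445 rows, while miR-582-5p ranked 6. Without vehicle 9, the library where miR-190a was low, the values were -2.06 (SE 0.45), -1.68 (SE 0.43) and -1.12 (SE 0.41). That was the only alternative in which the test called a member, miR-190a-5p, and since the members were picked on this contrast the call is no support. With age as a covariate they were -1.02 (SE 0.55), -0.90 (SE 0.53) and -1.02 (SE 0.38); in that fit all 3 members lay within 1 SE of each other.

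**Figure D2:**
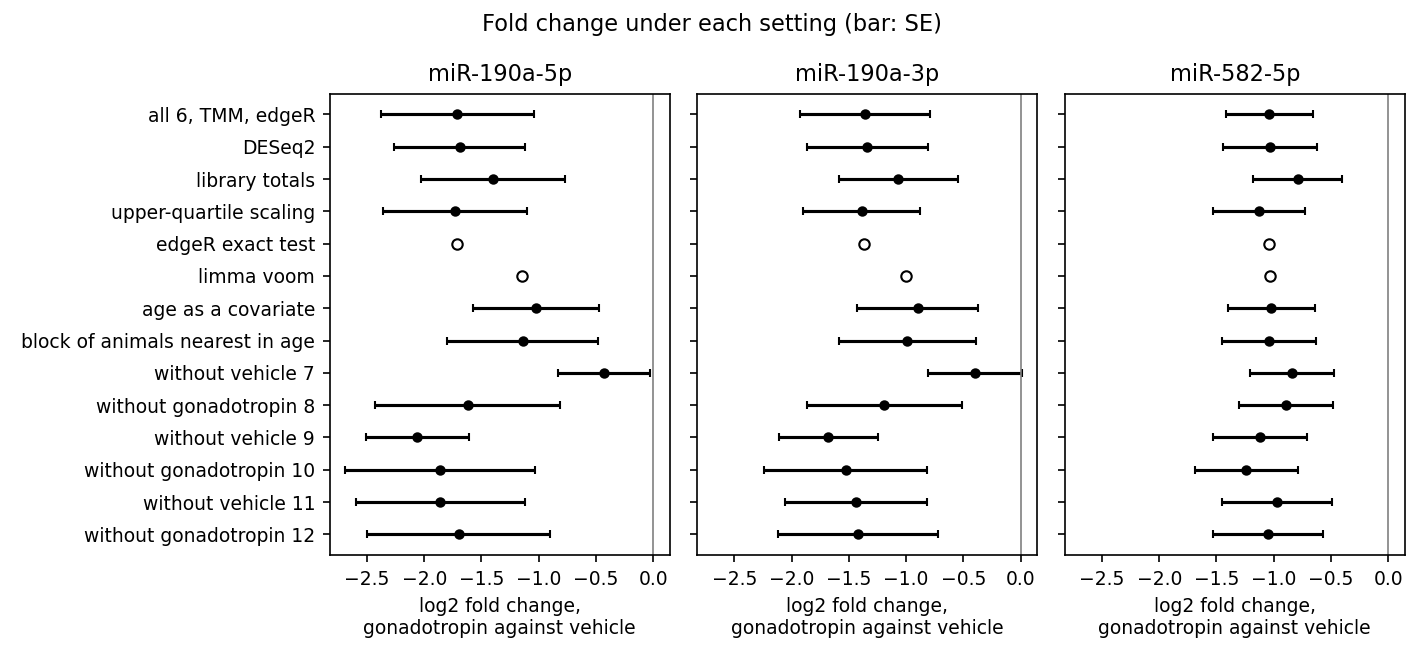
log2 fold change of gonadotropin against vehicle for the 3 members under each setting (rows) except the fit with no filter. Bars give the SE, and open circles mark settings where no SE was computed. Leaving out vehicle 7 moves the miR-190a arms to -0.43 and -0.40, whereas miR-582-5p stays between -1.24 and -0.79 in all rows shown.

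The animals nearest in age are set side by side here as a description. Between vehicle 7 and gonadotropin 8, the oldest animals at 24 and 22 months, the log2 ratio of gonadotropin to vehicle was -3.07 for miR-190a-5p, -2.83 for miR-190a-3p and -1.78 for miR-582-5p. Between vehicle 11 and gonadotropin 12, both aged 15 months, it was -0.93, -0.72 and -0.96. Between vehicle 9 and gonadotropin 10, both aged 14 months, it was 0.51, 0.49 and -0.41. The groups of miR-582-5p do not overlap, so any such arrangement gives negative ratios for it. The labels do not pair these animals, and each ratio rests on 1 library a side.

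Vehicle 7 held higher values of many miRNAs, and miR-190a-5p was the furthest of all. Set against the median of the other 5 libraries, miR-190a-5p was 7.07-fold higher there (log2 2.82), which ranked 1 of 433. miR-190a-3p was 4.57-fold higher (rank 8) and miR-582-5p 2.10-fold higher (rank 47). In that library 55 rows lay more than 1 (log2) above the median of the others and 42 more than 1 below. In vehicle 11, the library with the second highest level of all 3 members, miR-190a-5p was 1.89-fold above the median of the others (rank 16) and miR-582-5p 1.64-fold (rank 34). At the other end, miR-582-5p was at 0.481 times the median of the others in gonadotropin 8, the rank 20 from the bottom.

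**Figure D3:**
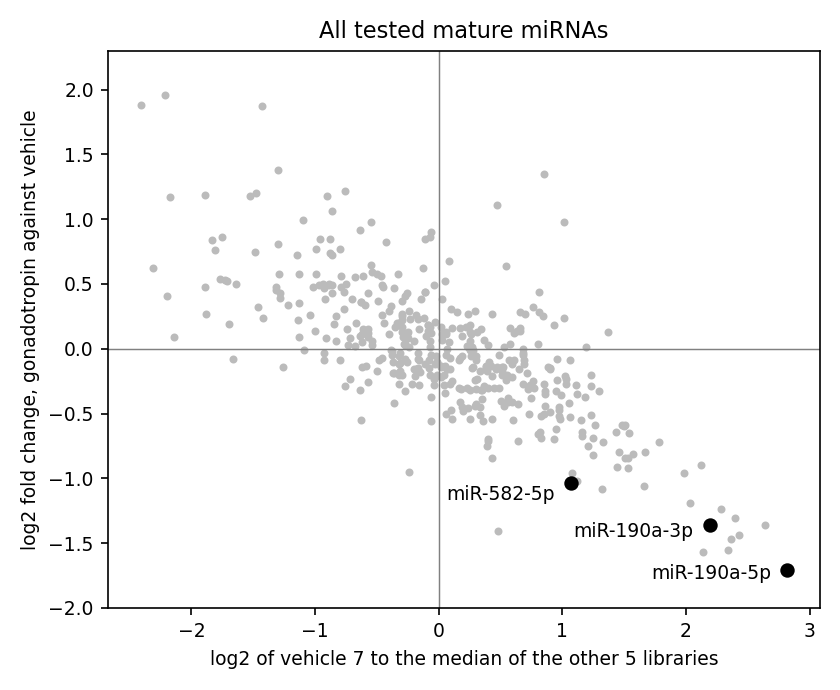
Each point is 1 of the 433 tested mature miRNAs. The x axis is the log2 ratio of vehicle 7 to the median of the other 5 libraries and the y axis the log2 fold change of gonadotropin against vehicle; vehicle 7 enters both axes, so a slope is built in. miR-190a-5p lies at 2.82 and -1.71, at the far right, and miR-582-5p at 1.07 and -1.04, below most points with a similar x value.

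The sums of neural, epithelial, blood and liver markers in vehicle 7 lay outside the range of the other libraries. Those of endothelial, muscle, and germ cell and testis markers lay within it. The part of such markers in the values of miR-190a was not tested. Neural markers, 7 rows, summed to 201 CPM in vehicle 7 and 73.1 to 138 CPM elsewhere (vehicle 73.1 to 201, gonadotropin 98.2 to 114). Epithelial markers, 9 rows, summed to 240 CPM in vehicle 7 and 95.5 to 174 CPM elsewhere (vehicle 104 to 240, gonadotropin 95.5 to 174). Blood markers, 9 rows, were lowest in vehicle 7 at 5140 CPM (vehicle 5140 to 11100, gonadotropin 7910 to 9160). The endothelial miR-126 had 5630 CPM in vehicle 7, close to the 5530 CPM of vehicle 11, the 2 libraries with the highest miR-190a, and at 6870 to 11300 CPM in the others. Muscle markers, 7 rows, summed to 23500 CPM in vehicle 7 and 21500 to 50400 CPM elsewhere (vehicle 23500 to 50400, gonadotropin 21500 to 40700). Germ cell and testis markers summed to 64200 CPM in vehicle 7 and 54600 to 77400 CPM elsewhere. The liver marker miR-122, 2 rows, was near 0, at 0.664 to 1.59 CPM. No marker row was at 0 in all libraries, and no member of these lists was called by the edgeR quasi-likelihood test. Single markers of 1 list differed in this. Relative to the median of the other libraries, in log2, vehicle 7 lay at 1.16 for miR-9-5p and 0.98 for miR-9-3p, but at 0.31 for the third neural marker tested, miR-124a-3p, which had 55.8 CPM there and 56.3 CPM in gonadotropin 8. Of the 6 epithelial markers tested, miR-200a-3p (1.54), miR-200c-3p (0.86), miR-141-3p (0.81), miR-429-3p (0.66) and miR-205 (0.43) lay above that median and miR-203 (-0.25) below it. Between the groups 4 of these 6 had higher and 2 lower values with gonadotropin, and 1 of the 3 neural markers higher and 2 lower. Of the 7 blood markers tested, only miR-144 (0.57) lay above the median of the other libraries in vehicle 7. The rest lay below it, from -1.89 for miR-486-5p to -0.54 for miR-451. Between the groups 6 of the 7 had higher and 1 lower values with gonadotropin (median log2 fold change 0.43, beside -0.06 over all rows).

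The other strand of miR-582 and the paralog of miR-190a were rare, and neither passed the filter on low counts. miR-190b had 55 reads in all 6 libraries and stood at 18.3, 9.79 and 3.08 CPM in animals 7, 9 and 11 of the vehicle group and at 3.22, 2.15 and 4.65 CPM in animals 8, 10 and 12 of the gonadotropin group. Vehicle 7 was again the highest library, but vehicle 11 lay within the gonadotropin range, and vehicle 9, the lowest for miR-190a-5p, was the second highest here. With no filter its log2 fold change was -1.62 (SE 0.65; edgeR quasi-likelihood adjusted p = 0.595), with an adjusted p of 0.267 to 0.985 over its alternatives, and the fold change was -0.94 without vehicle 7. miR-582-3p had 41 reads and stood at 12.7, 1.51 and 6.15 CPM in the vehicle animals, in the same order, with 2.41, 3.75 and 3.32 CPM after gonadotropin. With no filter its log2 fold change was -1.05 (SE 0.69; edgeR quasi-likelihood adjusted p = 0.894, and 0.287 to 1 over its alternatives), and -0.23 without vehicle 7. Both had 2 to 23 reads per library, which leaves wide counting intervals, such as 0.182 to 5.44 CPM for miR-582-3p in vehicle 9.

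The balance of the 2 arms describes how the strands of 1 hairpin varied beside each other across animals. For miR-190a the 5p arm made 61.4% of 3263 reads of both arms over all libraries. Its share was 65.4% in vehicle 7 (95% exact binomial interval 63.0 to 67.7%), 56.6% in vehicle 9 and 58.5% in vehicle 11, and 61.5%, 56.8% and 55.0% in gonadotropin 8, 10 and 12. The 2 highest shares were those of the oldest animals, 1 in each group, and the groups overlapped. The interval of gonadotropin 8 (54.4 to 68.3%) spanned the values of all other libraries, whereas that of vehicle 7 held none of them. For miR-582 the 5p arm dominated, with 91.4% of the reads of both arms in all and 87.4 to 97.3% per library.

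**Figure D4:**
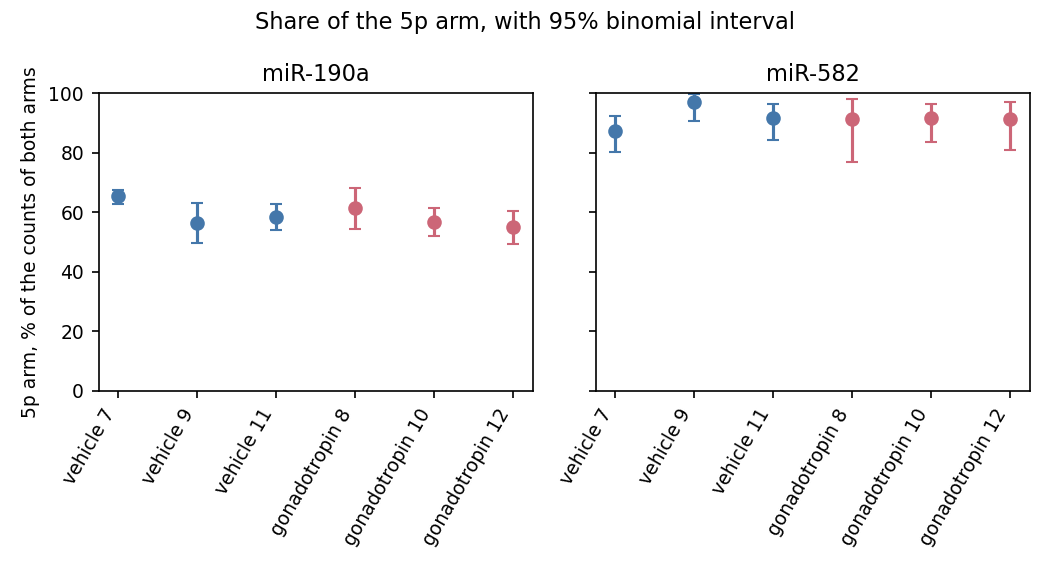
Share of the 5p arm among the counts of both arms, in %, for miR-190a and miR-582 in each library (vehicle blue, gonadotropin red), with 95% exact binomial intervals. The share runs from 55.0 to 65.4% for miR-190a and from 87.4 to 97.3% for miR-582, and the groups overlap in both.

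A second table of the same libraries counted reads per annotated small RNA gene on rheMac8. The gene mir-190a (ENSMMUG00000028594, chromosome 7, 39416819 to 39416903, plus strand) had between 0.997 and 1.02 times the summed reads of the 2 arms, so it counts nearly the same reads again. Vehicle 7, 9 and 11 held 703, 76.0 and 198 CPM of it, and gonadotropin 8, 10 and 12 held 81.4, 144 and 122 CPM. Vehicle 9 was again the lowest library. Its log2 fold change was -1.49 (SE 0.73), and -0.23 without vehicle 7.

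The gene mir-582 (ENSMMUG00000033132, chromosome 6, 49365890 to 49365987, minus strand) had 1.01 to 1.11 times the reads of its arms. Vehicle 7, 9 and 11 held 61.4, 25.9 and 42.4 CPM, and gonadotropin 8, 10 and 12 held 15.6, 27.2 and 24.0 CPM. Here the groups overlapped, as vehicle 9 lay below gonadotropin 10, unlike in the miRNA table, where the same libraries were at 55.0 and 41.3 CPM. The gene had 76 reads in vehicle 9 and 85 in gonadotropin 10, where miR-582-5p had 73 and 77. The TMM factor of vehicle 9 was 0.946 for miRNAs and 1.08 for genes. As a share of all counts in the gene table, with no scaling, mir-582 was higher in vehicle 9 (0.00280%) than in gonadotropin 10 (0.00268%), so the order of these 2 libraries rests on the scaling. The log2 fold change of the gene was -0.95 (SE 0.46), and -0.60 without vehicle 7. In this second table, 3.35% of 717 tested genes separated the groups with gonadotropin lower. Within 1 Mb of mir-582 the table held no other small RNA gene, and within 1 Mb of mir-190a it held 2, neither with enough counts to be tested.

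The rows whose levels followed miR-190a-5p most closely over the 6 libraries also peaked in vehicle 7. Pearson's r of log2 CPM was 0.99 for its own 3p arm, 0.97 for miR-19b of the miR-17 to miR-92 family of clusters, 0.97 for miR-450b-3p, encoded on the X chromosome near miR-424 and miR-503, 0.96 for miR-29c-3p, a repressor of collagen messages, and 0.96 for miR-708-5p. miR-29c-3p stood highest in vehicle 7 (13800 CPM) and next in vehicle 11 (4920 CPM), with 1740 to 3610 CPM in the other libraries. Without vehicle 7, r over the other 5 libraries was 0.96 for the 3p arm and 0.82 to 0.92 for these 4. Over all rows 20 had r above 0.9 with miR-190a-5p. These values are a description over 6 libraries and share library and depth.

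miR-582-5p followed other rows. The closest were miR-30b-5p (r = 0.96), let-7a-5p (0.94), miR-99a-5p (0.94), miR-30d-5p (0.93) and miR-148a-5p (0.91). Of these, let-7a-5p had 74100, 42500 and 46200 CPM in animals 7, 9 and 11 (vehicle), with 25300, 42500 and 35300 CPM in animals 8, 10 and 12 (gonadotropin), so the groups met at vehicle 9 and gonadotropin 10. Between miR-582-5p and miR-190a-5p r was 0.79, and 0.63 without vehicle 7. miR-190a-5p was the rank 33 among the rows most like miR-582-5p.

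Other miRNAs encoded inside protein-coding genes, a list of 91 rows that holds no member, lay on both sides of 0. Of 72 tested, 32 had higher and 40 lower values, with a median log2 fold change of -0.09 beside -0.06 over all rows. The edgeR quasi-likelihood test called none of them, and 1 had an unadjusted p under 0.05, miR-188-5p of the CLCN5 introns (0.90, SE 0.36, adjusted p = 0.702). miR-33b-5p, from an intron of the lipid regulator SREBF1, had the lowest p of those with lower values (-1.44, SE 0.73, adjusted p = 0.702 by the same test), and it too was highest in vehicle 7, at 97.2 CPM against 6.78 to 36.9 CPM. The list of miRNAs tied to hormones or cyclic AMP in gonadal cells had 8 of 14 tested members with higher and 6 with lower values (median 0.09), and none was called. In it miR-21-5p ran from 17800 to 19100 CPM in the vehicle and from 23500 to 35700 CPM in the gonadotropin libraries (0.58, SE 0.29; edgeR quasi-likelihood adjusted p = 0.702). Its other arm, miR-21-3p, overlapped between the groups, at 5.27 to 23.1 CPM in vehicle and 10.7 to 37 CPM in gonadotropin libraries. The share of all tested rows that separated the groups with gonadotropin higher is not given here. Nothing is therefore read from the separation of miR-21-5p. miR-31-5p had 9210 CPM in gonadotropin 8 and 1310 to 2410 CPM in all other libraries.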

How the data were processed

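Testis small RNA of 6 monkeys was measured as 2 tables of raw counts, deposited by the authors: reads per mature miRNA (miRDeep2, rheMac2) and per small RNA gene (HTSeq, rheMac8), per the labels. HTSeq 0.6.1p1, Bowtie 1.1.2, cutadapt 1.9.1 and edgeR are named in the submitters' processing notes. How reads with several matches or the strand were handled is not given in the sources used here, so near-identical miRNAs (miR-190a, miR-190b) may share reads. The titles name Ion Torrent and the extraction protocol Illumina steps. The authors also deposited log2 fold changes of an edgeR exact test, used only where named.

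Rows were filtered (filterByExpr, minimum count 10), scaled by TMM over the tested rows and fitted with edgeR 4.0.16 in R 4.3.3 (quasi-likelihood test, robust), with Benjamini-Hochberg adjustment over the table and a threshold of 0.05. The SE is approximate, computed as |log2 fold change| / sqrt(F). log2 CPM used a prior count of 2. Alternatives were DESeq2 1.42.0, limma 3.58.1 (voom), the edgeR exact test, other scalings, no filter, age terms and leaving out each library. Total counts were 2146412 to 3170784 in the gene table. The script was tested on simulated counts. The members, lists and rules for named miRNAs (members, relatives, the 5 rows most like each of miR-190a-5p and miR-582-5p, 3 lowest p per list, neighbours in order) were chosen with earlier results of these data known. Sequence features were not analysed here.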

Additional observations from a re-analysis of the deposited data

How the results depend on the processing

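The log2 fold changes of the 3 members and of the genes mir-190a and mir-582 were negative in all 14 alternatives each. The members were picked for lower counts in these same libraries, and the genes count nearly the same reads again. That the sign held is therefore no support. Leaving out 1 library gave -2.06 to -0.43 for miR-190a-5p, -1.68 to -0.40 for miR-190a-3p and -1.24 to -0.84 for miR-582-5p, the weakest value in each case without vehicle 7. The other alternatives gave -1.73 to -1.02, -1.39 to -0.90 and -1.13 to -0.79. Library totals moved the median of all miRNAs from -0.06 to 0.19 (log2); relative to it the members were at -1.59, -1.26 and -0.98, beside -1.65, -1.31 and -0.99 with TMM. The median of the intronic list turned to 0.18 with library totals, was -0.17 with upper-quartile scaling and ran from -0.11 to 0.02 without 1 library, turning to 0.02 without vehicle 11. The median of all tested miRNAs moved alike. It was 0.19 with library totals, -0.15 with upper-quartile scaling and 0.03 without vehicle 11.

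The number of rows called in the miRNA table was 1 by the edgeR quasi-likelihood test, 3 with DESeq2, 2 with library totals, 3 with the edgeR exact test, and 0 with limma voom, with age as a covariate or with animals nearest in age as blocks; without 1 library it ran from 0 to 4. In the gene table it was 1, and 3 with DESeq2, with no filter or with the exact test, 0 with limma voom or age blocks, and 0 to 1 without 1 library. The cause of these shifts was not tested. No animal number occurs in both groups, so the numbers pair no samples; with animals nearest in age as blocks the members were at -1.14, -0.99 and -1.04. At 41 and 55 reads in all, miR-582-3p and miR-190b are limited by depth.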

Other observations

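The 10 tested miRNAs that stood highest in vehicle 7 against the median of the other libraries, looked up after the values were seen, all had negative log2 fold changes, from -1.71 to -0.90; vehicle 7 enters both values. After miR-190a-5p came miR-186-5p (6.25-fold; 1480 CPM against 105 to 439), encoded inside ZRANB2, miR-33b-5p (5.39-fold), miR-1296-3p, miR-544, miR-450b-3p, miR-29b-3p (4.86-fold; 17200 CPM against 1490 to 4280), miR-190a-3p, miR-365-3p (4.41-fold; 1200 CPM against 127 to 297) and miR-20a-5p (4.33-fold). miR-582-5p was not among them.

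The share of the 5p arm of miR-190a was 65.4% and 61.5% in the animals aged 24 and 22 months and 55.0 to 58.5% in the 4 animals aged 14 or 15 months. Age and library cannot be told apart with so few animals, and the difference was not tested.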
